A study of Rattus norvegicus with 8 samples.

Results

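The chemokine and chemokine receptor genes of the rat thoracic aorta were taken from the gene table by name, as every gene called Ccl, Cxcl, Xcl or Cx3cl (ligands) or Ccr, Cxcr, Xcr or Cx3cr (receptors) followed by a number alone. This rule found 44 of 19238 genes, of which 28 code for ligands and 16 for receptors. The study sequenced total RNA of thoracic aortas from Goto-Kakizaki (GK) rats, an inbred line selected from Wistar rats for poor glucose tolerance and used as a model of type 2 diabetes without obesity, and from control Wistar rats. All animals were 7 to 8 weeks old, and each group had 4 libraries, numbered 7 to 10 in both. No treatment or transgene is named in the labels, which assign the GK samples to diabetic macroangiopathy, disease of the large arteries. Strain and diabetes divide the samples in the same way and cannot be told apart. The labels do not say that the libraries came from separate animals, so the p-values measure only the spread between these samples.

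Chemokines are small secreted or membrane-bound proteins that bind receptors coupled to G proteins on leukocytes and other cells, and cells move up their gradients. The CC and CXC families are named after the spacing of their first cysteines, and many are held on heparan sulfate chains at vessel walls. Some, such as Cxcl12, are made constantly by stromal and endothelial cells, while others are induced by cytokines through NF-kB or interferon signalling. In arteries they are best known for bringing monocytes and lymphocytes into the wall.

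Total gene counts lay between 11760397 and 16266151 per library. CPM values are counts scaled to the library total after TMM normalization and compare 1 gene between libraries. Levels of different genes are compared in FPKM, the authors' values corrected for transcript length and sequencing depth. Fold changes are log2 of GK over control ± SE, and adjusted p-values are those of the edgeR quasi-likelihood test after Benjamini-Hochberg correction over all 13673 genes tested. Smooth muscle markers, which define the labelled tissue, were present in every library, with a summed level of 2954 to 8137 CPM in GK and 5309 to 14329 CPM in control libraries. No marker gene found in the table, of any cell type listed, was at 0 in all 8 libraries. GK 9 and control 9 had the highest lymphatic endothelial marker sums of their groups, and results that rest on them are given without them where the call changes.

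Promoters of 4 ligands are printed because, of the 6 ligands that changed past the test described below, these had the largest log2 fold changes in size, Cxcl12 upward and Cxcl14, Cxcl13 and Ccl6 downward in GK. Each line gives the 250 bases before the transcription start, 5′ to 3′ on the gene's own strand, from RefSeq (build GRCr8). Capitals mark letters that match 1 of 5 patterns on either strand. The NF-kB pattern is GGG, any 5 letters and CC. The GAS pattern of STAT factors is TTCNNNGAA and the AP-1 pattern is TGANTCA. The TATA box is read as TATAAA and the GC box as GGGCGG, and none of the matches in the printed windows overlap. The regions are chr4:152060531-152060780 (+) for Cxcl12, chr17:8322900-8323149 (+) for Cxcl14, chr14:13917921-13918170 (-) for Cxcl13 and chr10:68883367-68883616 (-) for Ccl6.
Cxcl12: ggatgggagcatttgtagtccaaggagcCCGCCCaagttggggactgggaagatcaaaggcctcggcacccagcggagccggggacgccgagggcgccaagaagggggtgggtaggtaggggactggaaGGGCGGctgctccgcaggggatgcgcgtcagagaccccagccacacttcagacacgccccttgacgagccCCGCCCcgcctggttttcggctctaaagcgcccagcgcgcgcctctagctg
Cxcl14: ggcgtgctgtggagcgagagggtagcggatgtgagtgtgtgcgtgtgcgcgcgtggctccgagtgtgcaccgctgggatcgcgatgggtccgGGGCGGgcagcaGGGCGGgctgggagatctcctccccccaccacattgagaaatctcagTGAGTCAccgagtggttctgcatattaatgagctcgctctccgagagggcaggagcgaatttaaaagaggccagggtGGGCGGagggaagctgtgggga
Cxcl13: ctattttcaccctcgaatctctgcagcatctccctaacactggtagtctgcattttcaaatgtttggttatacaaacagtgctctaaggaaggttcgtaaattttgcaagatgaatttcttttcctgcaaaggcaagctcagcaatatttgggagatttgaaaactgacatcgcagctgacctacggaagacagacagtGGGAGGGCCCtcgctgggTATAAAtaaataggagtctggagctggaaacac
Ccl6: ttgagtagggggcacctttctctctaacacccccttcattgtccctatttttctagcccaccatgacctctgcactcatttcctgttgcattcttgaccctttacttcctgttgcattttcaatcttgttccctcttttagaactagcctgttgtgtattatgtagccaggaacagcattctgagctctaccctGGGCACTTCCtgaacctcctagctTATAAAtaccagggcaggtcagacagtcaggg
In the Cxcl12 window the capitals are 3 GC boxes, and in that of Cxcl14 they are 3 GC boxes and 1 AP-1 match at 99 to 93 bases before the start. Cxcl13 has an NF-kB match 51 to 42 bases and a TATA box 33 to 28 bases before its start. Ccl6 has the same pair, an NF-kB match at 56 to 47 bases and a TATA box at 32 to 27 bases. GC content was 67.6% for Cxcl12 and 63.2% for Cxcl14, against 43.6% for Cxcl13 and 46.8% for Ccl6. Of the 44 genes, 32 had a promoter in the RefSeq table. The NF-kB letters occurred in 18 of these 32 (56.2%) and in 42.3% of all 33469 promoters, and the TATA box in 10 (31.2%) and in 12.9%. AP-1 letters occurred in 7 (21.9%) and in 6.34% of all promoters, the GC box in 8 (25%) and in 30.5%, and GAS letters in 4 (12.5%) and in 7.67%. A match describes letters and is not a measured binding site.

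Of the 44 genes, 24 reached a mean of 1 FPKM in GK or control aorta, 16 of them ligands and 8 receptors, and 32 had a count in every library. The ligands at this level were Ccl2, Ccl5, Ccl6, Ccl11, Ccl19, Ccl21, Ccl24, Ccl27, Cx3cl1, Cxcl1, Cxcl9, Cxcl10, Cxcl12, Cxcl13, Cxcl14 and Cxcl16. The receptors included Ccr1, Ccr2, Ccr7, Ccr10, Cx3cr1, Cxcr2 and Cxcr4. Cxcl12 had the highest level per length in GK, 64.5 ± 20.9 FPKM, against 26.0 ± 10.5 FPKM in control aorta (SD, n = 4 each). Among the 44 genes, Cxcl14 had the highest level in control aorta, with 7.85 ± 4.38 FPKM in GK and 51.5 ± 12.4 FPKM in control. Ranked by their mean FPKM over the 8 libraries, Ccl21, Cxcl16, Ccl6, Ccl11 and Cxcl9 followed, between 20.4 and 9.82 FPKM. Neighbours in that order did not separate beyond their spread, since Ccl21 alone ran from 2.31 to 37.0 FPKM in GK and from 1.53 to 76.8 FPKM in control libraries. Receptors lay lower. In GK the highest receptor mean was that of Cxcr4, with 2.76 ± 1.56 FPKM in GK and 2.61 ± 0.457 FPKM in control. In control aorta it was that of Ccr1, with 2.62 ± 1.39 FPKM in GK and 4.76 ± 2.41 FPKM in control, and in GK these 2 receptors did not differ beyond their spread.

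**Figure D1:**
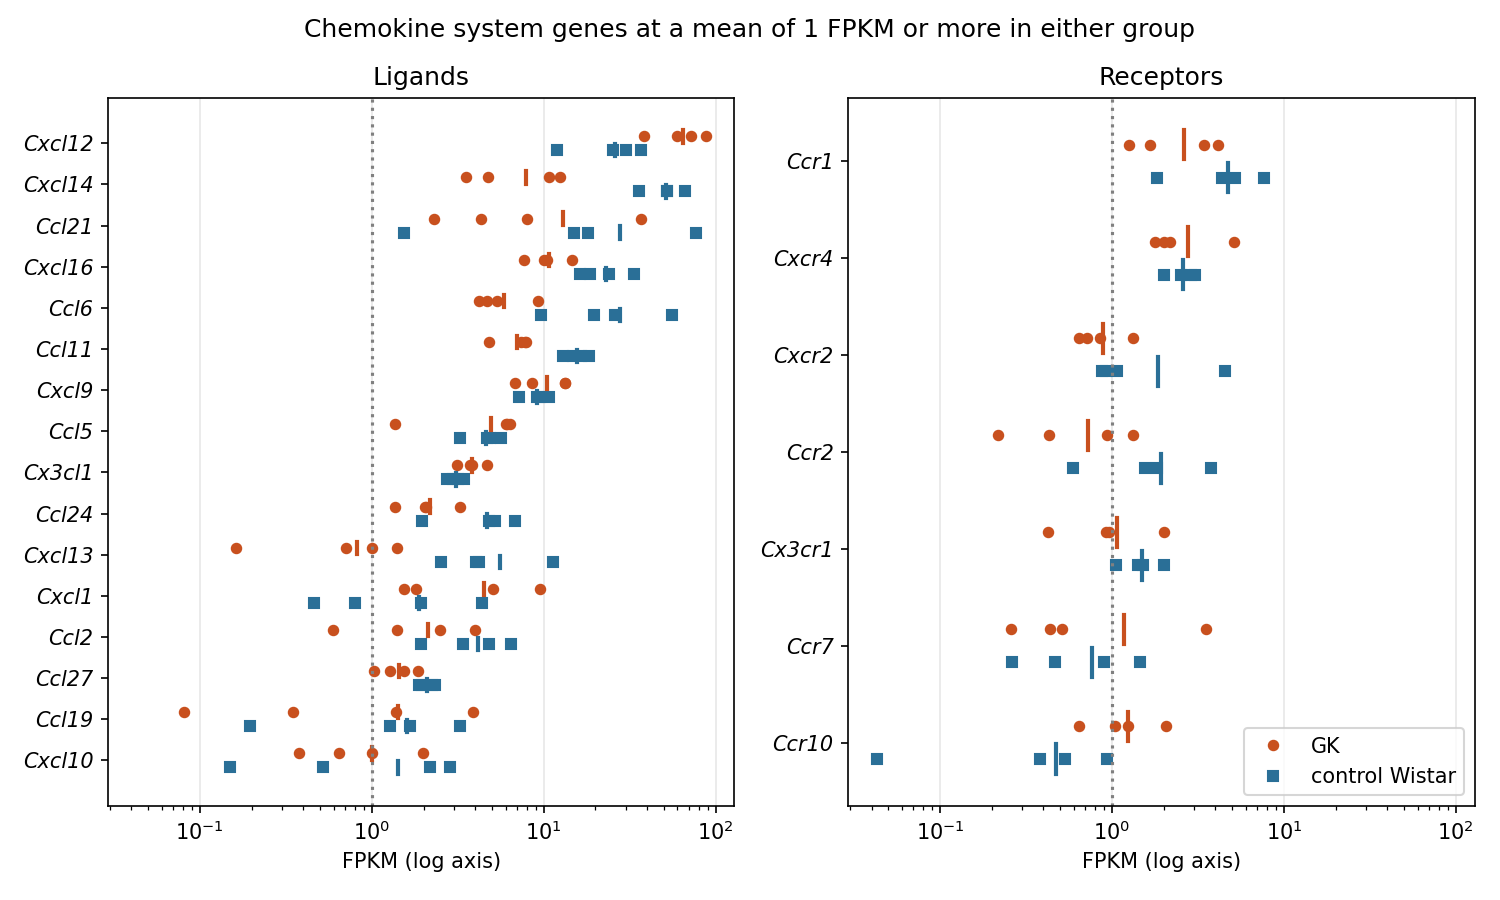
Level of the ligand (left) and receptor (right) genes reported here with a mean of at least 1 FPKM in either group, on a log axis in FPKM. Circles are GK and squares control Wistar libraries, short bars are group means, and the dotted line marks 1 FPKM; Cxcl12 lies to the right in GK and Cxcl14 to the right in control, while the receptors cluster within a few FPKM.

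The make-up of the ligand transcripts differed between the strains, in these first 2 genes and in others. Cxcl12 made up 61.4, 46.9, 34.7 and 38.2% of the summed ligand FPKM in GK libraries 7 to 10, against 15.5, 8.55, 11.8 and 11.7% in control libraries 7 to 10. Cxcl14 made up 2.48 to 8.36% in GK, against 11.6 to 37.4% in control libraries. Neither range overlapped between the groups. The share of Ccl6 did not overlap either, with 3.29 to 4.48% in GK and 6.96 to 17.8% in control libraries. That of Cxcl9 was the higher in GK, with 5.33 to 13.3% in GK and 2.96 to 5.15% in control libraries. The level of Cxcl9 itself, 10.5 FPKM in GK and 9.16 FPKM in control, did not differ past the edgeR test (adjusted p = 0.358). Each share also depends on the other ligands in the sum. The shares of Cxcl16, Ccl21 and Ccl11 overlapped. The ligand sum itself was 143, 128, 207 and 100.2 FPKM in GK, against 193.5, 139, 310.5 and 216 FPKM in control libraries, so the totals overlapped. Without Cxcl12, the remaining ligands summed to 55.1 to 135 FPKM in GK and 127 to 274 FPKM in control libraries. Unlike the CPM values, these FPKM carry no TMM scaling, for which the factors ran from 0.826 to 1.24. Whether such sums overlap between the groups therefore depends on the unit.

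**Figure D2:**
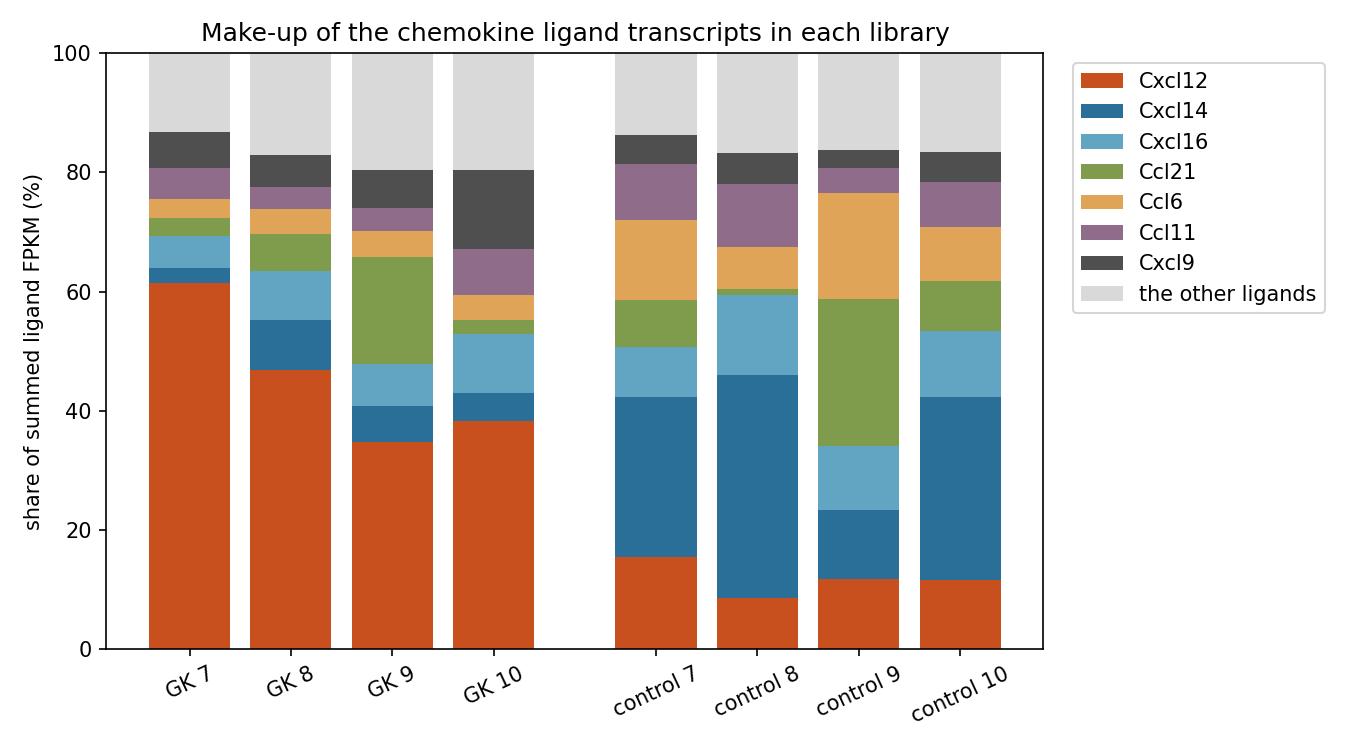
Share of the summed FPKM of all 28 ligand genes taken by 7 named ligands and by the rest, in percent, for each GK library (left) and control library (right). The Cxcl12 segment is 34.7% or more in each GK library and 15.5% or less in each control library.

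A filter on low counts left 24 of the 44 genes for the test, 16 ligands and 8 receptors. The ligands were those that reached 1 FPKM, but the receptors differed in part. Ccr2 (1.94 FPKM in control) and Ccr7 (1.18 FPKM in GK) were not tested, while Cxcr3 and Cxcr5 were tested below 1 FPKM. Of the 24 genes tested, 6 changed in GK (adjusted p under 0.05), which is 25% of those tested beside 7.28% of all genes tested. All 6 were ligands: Cxcl12 rose, where 3.96% of all genes did, and Cxcl14, Cxcl16, Ccl6, Cxcl13 and Ccl11 fell, where 3.31% of all genes did. At an unadjusted p under 0.05 there were 8, beside 27.6% of all genes. The median log2 fold change over the 24 genes was -0.38, with 17 below 0, beside a median of 0.00081 and 50% below 0 over all genes. GK and control CPM did not overlap for 7 of the 24, beside 15.6% of all genes. GK was the higher for Cxcl12 and Cx3cl1 (7.93% of all genes) and the lower for the 5 ligands that fell (7.64% of all genes). The count of 6 rested on most of the libraries. It was 1 when GK 7, GK 8, GK 10 or control 10 was left out, beside 1.34, 1.3, 2.1 and 0.974% of all genes in those fits. It was 2 of 27 without control 7 (4.07% of all genes), and 4 of 24 without control 9 (3.78% of all genes). Without control 8 it was 6 of 26, of which 4 were among the first 6 and Ccl24 and Ccr3 were added (4.24% of all genes). Without GK 9 it was 7 of 26, the 6 and Ccr3, which is 26.9% beside 22.1% of all genes. Without both libraries numbered 9 it was 6 of 23, or 26.1% beside 18.7% of all genes, so in these last 2 fits the share lay much nearer to that of all genes. Of the 44 genes, only Cxcl14 was called in all 8 fits without 1 library.

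**Figure D3:**
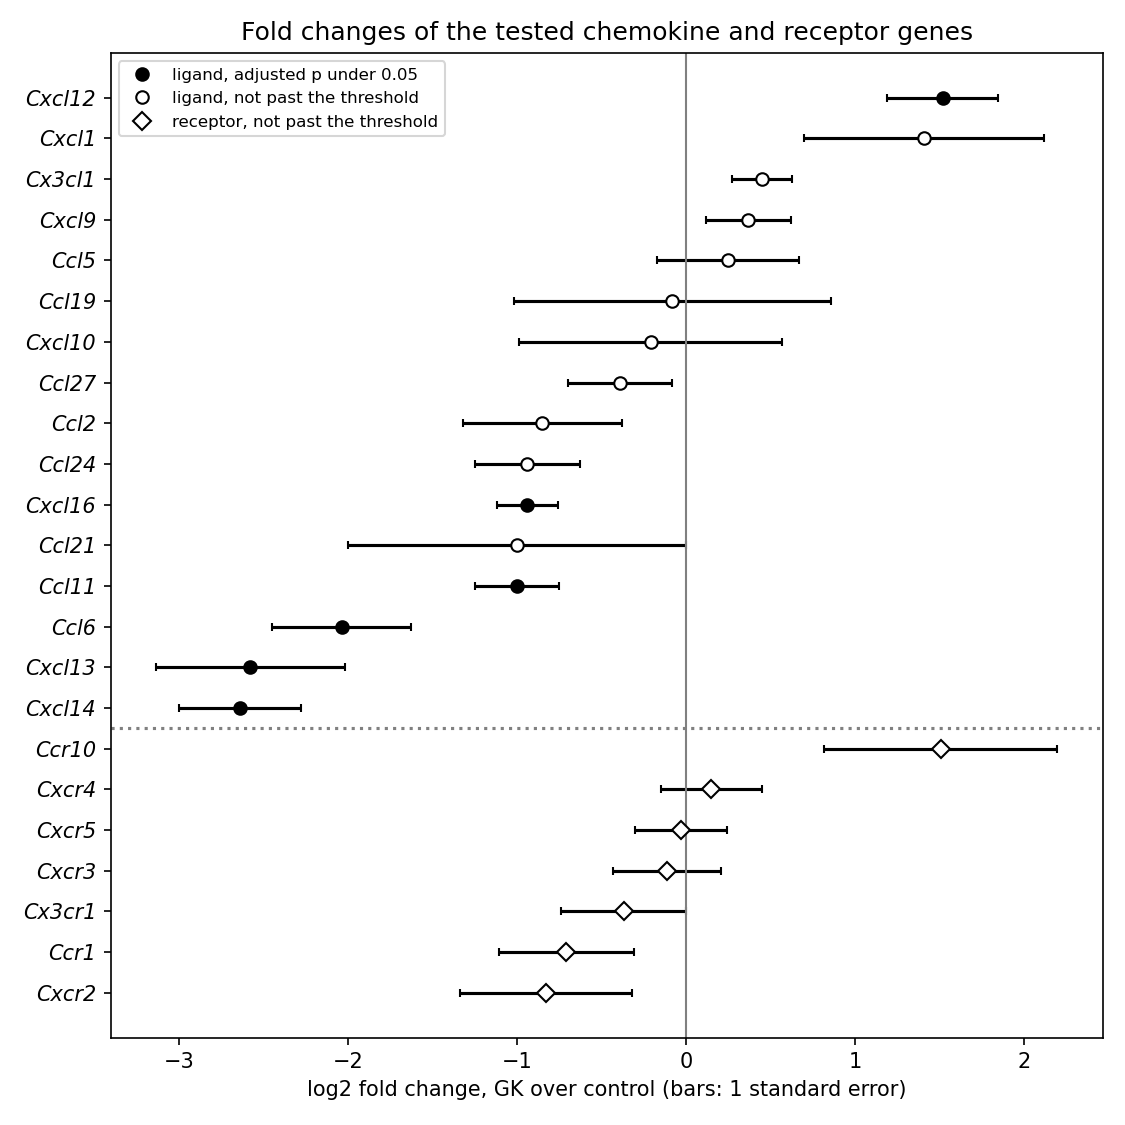
Log2 fold change of GK over control for the tested genes reported here, ligands above the dotted line and receptors below it, with bars of 1 standard error. Filled symbols are the 6 ligands with an adjusted p under 0.05; Cxcl12 is the filled symbol right of 0, and no receptor is filled.

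Cxcl12, the ligand of Cxcr4 that holds progenitors and lymphocytes in stromal niches, was the only one of the 24 tested genes to rise past the edgeR test. It lies on chromosome 4 (149261044 to 149273891; the sources used here do not give the build behind the files' coordinates). Cxcl12 had 565, 335, 332 and 251 CPM in GK libraries 7 to 10, against 161, 69.9, 161 and 126 CPM in control libraries 7 to 10. Every GK library lay above every control library, and GK 7 was the highest. The log2 fold change was 1.52 ± 0.33 (edgeR adjusted p = 0.0344; 371 ± 135 CPM in GK and 129 ± 42.9 CPM in control, SD, n = 4 each). Leaving out any 1 library except GK 9 ended the call, with adjusted p up to 0.108 and log2 fold changes of 1.24 to 1.67. In these bulk samples, more cells that make a transcript and more of it per cell cannot be told apart, nor can fewer cells and less RNA per cell.

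Cxcr4, the signalling receptor of Cxcl12 on leukocytes and progenitors, showed no difference past the test. Cxcr4 had 7.37, 6.93, 13.5 and 6.72 CPM in GK libraries 7 to 10, against 9.32, 9.71, 5.03 and 7.16 CPM in control libraries 7 to 10. The groups overlapped, and GK 9 alone stood high. Its log2 fold change of 0.15 ± 0.30 did not pass the test (edgeR adjusted p = 0.777) and turned to -0.14 without GK 9. Ackr3, the other receptor of Cxcl12, which takes up and degrades it, had a log2 fold change of -0.30 ± 0.19 (edgeR adjusted p = 0.329; 52.7 ± 9.32 CPM in GK and 64.9 ± 13.3 CPM in control).

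Cxcl14, a chemokine made constantly by epithelial and stromal cells and without a settled receptor, had the lowest log2 fold change of the 24 tested genes and the lowest adjusted p. It lies on chromosome 17 (9109731 to 9117750). Cxcl14 had 6.79, 17.7, 17.1 and 9.21 CPM in GK libraries 7 to 10, against 82.7, 90.9, 46.9 and 97.7 CPM in control libraries 7 to 10. The lowest control library, control 9, was well above the highest GK library. The log2 fold change was -2.64 ± 0.36 (edgeR adjusted p = 0.00946; 12.7 ± 5.52 CPM in GK and 79.5 ± 22.6 CPM in control), and the call held in all 16 alternatives, with adjusted p from 4.22e-10 to 0.0417. A catalogued long non-coding RNA, NONRATT012254.2, lies wholly inside the Cxcl14 locus (9113798 to 9114996). It had 3, 15, 13 and 5 counts in GK libraries 7 to 10, against 117, 60, 47 and 103 counts in control libraries 7 to 10. The authors' deposited table gives it a log2 fold change of -3.34 (q = 1.9e-05), and their prediction pairs it with Cxcl14 in cis. The sources used here do not say whether strand was used in counting, so reads of Cxcl14 and of this RNA cannot be told apart where they overlap.

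Cxcl16, a membrane-bound ligand of Cxcr6 that also takes up oxidised lipoprotein, was lower in every GK library. Cxcl16 had 15.5, 18.2, 21.4 and 20.7 CPM in GK libraries 7 to 10, against 27.5, 34.5, 45.8 and 37.5 CPM in control libraries 7 to 10. Control 7 came nearest to the GK libraries, and the log2 fold change was -0.94 ± 0.18 (edgeR adjusted p = 0.0247; 18.9 ± 2.64 CPM in GK and 36.3 ± 7.59 CPM in control). The call ended without GK 7, GK 8, GK 10 or control 10, with adjusted p up to 0.090. Cxcl16 shares 119 bases with the neighbouring gene Zmynd15, which had 0.957 CPM in GK and 0.778 CPM in control.

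Cxcl13, the ligand of Cxcr5 that brings B cells into follicles, was present at a low level. Cxcl13 had 0.219, 1.17, 1.35 and 0.982 CPM in GK libraries 7 to 10, against 4.55, 3.14, 10.5 and 4.37 CPM in control libraries 7 to 10. All GK libraries were below all control libraries, and control 9 was the highest. The log2 fold change was -2.58 ± 0.56 (edgeR adjusted p = 0.0339; 0.931 ± 0.498 CPM in GK and 5.63 ± 3.28 CPM in control), and the call ended without any 1 library other than GK 9 or control 8, with adjusted p up to 0.0999. B cell markers had a summed level of 6.57 to 28.6 CPM in GK and 12.7 to 23.4 CPM in control libraries, ranges that overlap. Cxcr5 averaged 1.20 ± 0.258 CPM in GK and 1.23 ± 0.190 CPM in control (edgeR adjusted p = 0.952).

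**Figure D4:**
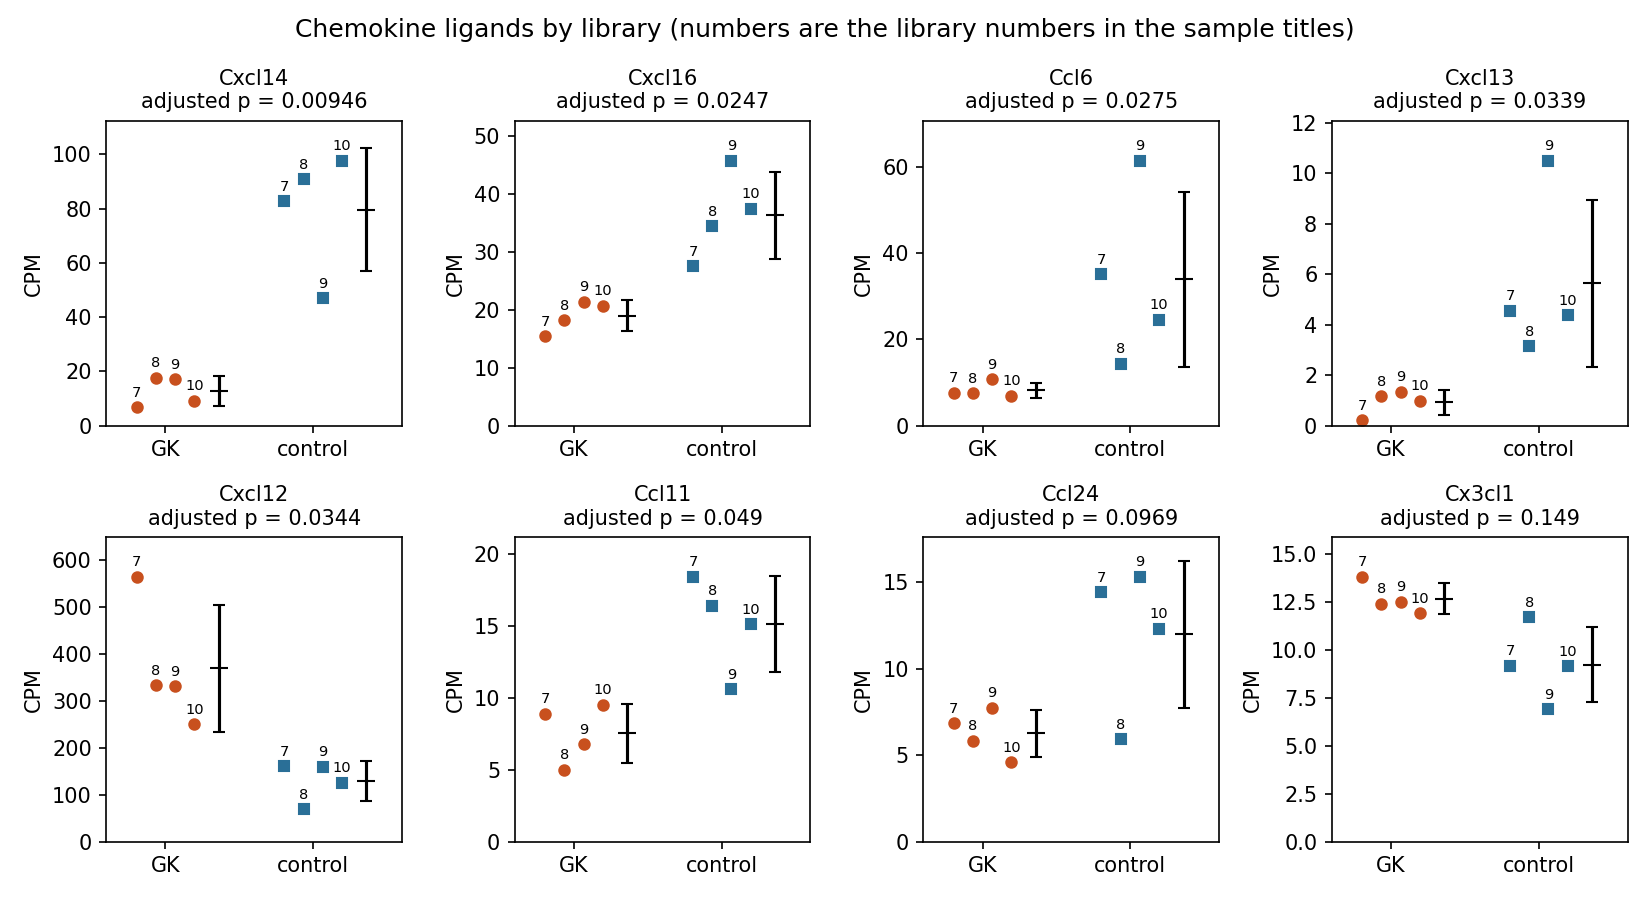
CPM in each GK library (circles, left) and control library (squares, right) for the 6 changed ligands and for Ccl24 and Cx3cl1, with library numbers beside the points and mean ± SD as black bars; each axis starts at 0. Cxcl12 and Cx3cl1 are higher in every GK library, the 5 ligands that fell are lower in every GK library, and Ccl24 overlaps through control 8.

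Among the inflammatory CC ligands, which draw monocytes, T cells and eosinophils, 5 of 12 had enough counts to test. Of these 5, 2 fell, beside 3.31% of all genes tested. Ccl6, which in mice acts through Ccr1 and is made by macrophages, had 7.66, 7.55, 10.8 and 6.95 CPM in GK libraries 7 to 10, against 35.2, 14.4, 61.5 and 24.6 CPM in control libraries 7 to 10. The GK values lay close together and below all control values, which were spread widely up to control 9. Its log2 fold change was -2.04 ± 0.41 (edgeR adjusted p = 0.0275; 8.25 ± 1.75 CPM in GK and 33.9 ± 20.2 CPM in control), and the call ended without GK 7, GK 8, GK 10, control 7 or control 10, with adjusted p up to 0.095. Of 15 macrophage markers, 14 had a log2 fold change below 0 and 1, the lysozyme gene Lyz2, fell. Their summed level was 396, 583, 565 and 352 CPM in GK libraries 7 to 10, against 992, 507, 1315 and 892 CPM in control libraries 7 to 10, so control 8 fell among the GK libraries. The part of macrophage content in the Ccl6 result was not tested.

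Ccl11 and Ccl24 are eotaxins, which attract eosinophils through Ccr3. Ccl11 had 8.90, 5.01, 6.77 and 9.51 CPM in GK libraries 7 to 10, against 18.4, 16.4, 10.6 and 15.1 CPM in control libraries 7 to 10. The highest GK library, GK 10, came just under the lowest control library, control 9. The log2 fold change was -1.0 ± 0.25 (edgeR adjusted p = 0.0490; 7.55 ± 2.06 CPM in GK and 15.1 ± 3.29 CPM in control). This call was at the threshold: it ended under RLE scaling, without a low-count filter, in limma-voom and without any 1 library other than GK 9 or control 9, with adjusted p up to 0.131. Ccl24 had 6.86, 5.83, 7.74 and 4.61 CPM in GK libraries 7 to 10, against 14.4, 5.92, 15.3 and 12.3 CPM in control libraries 7 to 10. Control 8 lay among the GK libraries and the other 3 control libraries above them. Its log2 fold change of -0.94 ± 0.31 did not pass the test (unadjusted p = 0.0147, edgeR adjusted p = 0.0969) and passed it without control 8 (adjusted p = 0.0366) and in DESeq2 (adjusted p = 0.0449).

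Ccr3, the eotaxin receptor of eosinophils, had enough counts in too few libraries to pass the filter. Its groups did not overlap either, with GK the lower, as for 7.64% of all genes tested. It had 0, 2, 4 and 1 counts in GK libraries 7 to 10, against 17, 6, 64 and 20 counts in control libraries 7 to 10. Summed over the groups, these were 7 counts in GK and 107 in control, a CPM ratio of control over GK of 16.1 (95% counting interval 7.57 to 41.1, for counting error only). Without the filter the log2 fold change was -3.86 ± 0.89 with an edgeR adjusted p = 0.0528, DESeq2 gave an adjusted p = 0.00108, and the authors' deposited table calls Ccr3 lower. Epx, the eosinophil peroxidase, looked up after the counts of Ccr3 were seen, had 0 counts in 7 libraries and 8 counts in GK 10.

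Ccl9, which neighbours Ccl6 on chromosome 10 and in mice shares its receptor, was near the limit of detection. Ccl9 had 0, 0, 0 and 2 counts in GK libraries 7 to 10, against 1, 9, 9 and 13 counts in control libraries 7 to 10. Control 7 with its single count fell among the GK libraries, and the CPM ratio of control over GK was 16.9 (95% counting interval 4.31 to 145). Without the low-count filter its adjusted p was 0.102 in edgeR, while DESeq2 gave an adjusted p = 0.0444 and the authors' deposited table calls it lower. The authors' deposited table calls 7 of the 44 genes in all (15.9%, beside 5.4% of its 19238 genes), Cxcl12 higher and Cxcl14, Cxcl16, Ccl6, Cxcl13, Ccl9 and Ccr3 lower, and gives Ccl11 a q of 0.0752. In the authors' deposited enrichment table, 6 of 36 genes under the term chemokine activity were called, 1 higher and 5 lower (q = 0.0675). The term chemokine receptor binding had 6 of 46 called (q = 0.148) and chemokine-mediated signaling pathway 5 of 63 (q = 0.767). None of these terms had a q under 0.05.

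Ccl6 and Ccl9 stand in a cluster of 5 CC ligands on chromosome 10 (70739800 to 70886355), the others being Ccl5, Ccl3 and Ccl4. Ccl5, a ligand of Ccr1 made by T cells, averaged 2.79 ± 1.32 CPM in GK and 2.36 ± 0.458 CPM in control (log2 fold change 0.25 ± 0.42, edgeR adjusted p = 0.726). Ccl3 and Ccl4, macrophage inflammatory proteins, were not tested, with 18 and 23 counts in GK against 33 and 18 counts in control. A second cluster on the same chromosome (69412017 to 69478462) holds Ccl2, Ccl7, Ccl11 and Ccl12. Ccl2, the main monocyte attractant and ligand of Ccr2, averaged 1.74 ± 0.961 CPM in GK and 3.15 ± 1.13 CPM in control (log2 fold change -0.85 ± 0.47, edgeR adjusted p = 0.278). Ccl7 had 30 counts in GK and 31 in control, and Ccl12 had 12 in GK and 6 in control. Of the ligands of Ccr4, a receptor of helper and regulatory T cells, Ccl17 had 3 counts in GK and 14 in control, and Ccl22 had 12 in GK and 40 in control.

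Cx3cl1, or fractalkine, is a membrane-anchored adhesion molecule and chemokine of endothelium that binds Cx3cr1 on monocytes. Cx3cl1 had 13.8, 12.4, 12.5 and 11.9 CPM in GK libraries 7 to 10, against 9.18, 11.7, 6.90 and 9.14 CPM in control libraries 7 to 10. The groups did not overlap, although GK 10 lay just above control 8. Its log2 fold change of 0.45 ± 0.18 missed the threshold (unadjusted p = 0.0345, edgeR adjusted p = 0.149) and was called in none of the 16 alternatives. Of 11 endothelial markers, 4 rose past the test, beside 3.96% of all genes tested. None fell past it, and 3 had a log2 fold change below 0. The summed level of these markers was 1178 to 1423 CPM in GK and 726 to 1138 CPM in control libraries, ranges that did not overlap. Their part in the Cx3cl1 values was not tested. Cx3cr1 averaged 1.43 ± 0.650 CPM in GK and 1.85 ± 0.331 CPM in control (edgeR adjusted p = 0.538).

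The interferon-inducible ligands of Cxcr3, which attract activated T cells, were Cxcl9, Cxcl10 and Cxcl11, and neither of the 2 that could be tested passed. Cxcl9 had 15.3, 10.5, 16.9 and 24.2 CPM in GK libraries 7 to 10, against 14.0, 11.6, 11.1 and 14.9 CPM in control libraries 7 to 10. The groups overlapped, with GK 10 the highest and GK 8 the lowest of all (log2 fold change 0.37 ± 0.25, edgeR adjusted p = 0.358). Cxcl10 averaged 1.24 ± 1.0 CPM in GK and 1.41 ± 1.20 CPM in control (edgeR adjusted p = 0.881), and Cxcl11 had 6 counts in GK and 7 in control. Cxcl10 and Cxcl11 lie wholly inside the locus of Art3, which had 58.4 CPM in GK and 39.8 CPM in control, so their counts are uncertain. A newly assembled RNA that overlaps Cxcl11 had 475, 318, 380 and 307 counts in GK libraries 7 to 10, against 124, 64, 176 and 163 counts in control libraries 7 to 10, and is called higher in the authors' deposited table (q = 0.0143).

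Cxcl1, a ligand of Cxcr2 that attracts neutrophils, averaged 4.14 ± 2.91 CPM in GK and 1.53 ± 1.27 CPM in control. It ranged from 1.68 CPM in GK 7 to 7.48 CPM in GK 9, against 0.462 to 3.28 CPM in control libraries, and the ranges overlapped (log2 fold change 1.41 ± 0.71, edgeR adjusted p = 0.234). Its neighbours Cxcl2 and Cxcl3 were barely detected, with 6 and 3 counts in GK against 4 and 0 counts in control. Cxcr2 averaged 1.78 ± 0.363 CPM in GK and 3.16 ± 2.63 CPM in control, where control 9 with 7.11 CPM set the mean (edgeR adjusted p = 0.317). Neutrophil markers summed to 246 to 321 CPM in GK and 29.3 to 169 CPM in control libraries. Nearly all of this in GK, and most of it in control, came from Mpo (282 ± 32.3 CPM in GK and 72.9 ± 53.6 CPM in control), which did not pass the test (edgeR adjusted p = 0.0546). Of the 6 neutrophil markers tested, 4 had a log2 fold change below 0 and 1 fell past the test, beside 3.31% of all genes tested. It was Retnlg, a resistin-like protein of neutrophils, with 0.689 ± 0.262 CPM in GK and 3.09 ± 1.76 CPM in control (log2 fold change -2.16 ± 0.45, edgeR adjusted p = 0.0306).

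Ccl21 and Ccl19 guide T cells and dendritic cells into lymph nodes through Ccr7, and Ccl21 is made by lymphatic endothelium. Ccl21 had 4.31, 6.86, 26.3 and 2.34 CPM in GK libraries 7 to 10, against 12.5, 1.39, 51.9 and 13.9 CPM in control libraries 7 to 10. It varied more within each group than between them, and the libraries numbered 9 were the highest of both (log2 fold change -1.0 ± 1.0, edgeR adjusted p = 0.541). The log2 fold change was -2.13 without GK 9 and 0.112 without control 9, neither past the test. Lymphatic endothelial markers summed to 88.1, 119, 377 and 78.6 CPM in GK libraries 7 to 10, against 164, 71.1, 349.8 and 157 CPM in control libraries 7 to 10. The order of the libraries within each group was nearly that of Ccl21; the part of lymphatic tissue in the Ccl21 values was not tested. Ccl19 averaged 1.04 ± 1.12 CPM in GK and 1.11 ± 0.789 CPM in control (edgeR adjusted p = 0.963). Ccr7 was not tested, with 93 counts in GK, 66 of them in GK 9, and 54 in control, 25 of them in control 9.

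None of the 8 tested receptors passed the test in edgeR, and 0 had an unadjusted p under 0.05, while DESeq2 called 1 receptor, the untested Ccr3. Ccr1, a receptor of monocytes and neutrophils, had 3.65, 6.52, 6.52 and 2.79 CPM in GK libraries 7 to 10, against 7.93, 3.70, 11.5 and 8.73 CPM in control libraries 7 to 10. For Ccr1, 3 control libraries lay above all GK libraries and control 8 among them, as for the macrophage marker sum. Its log2 fold change was -0.71 ± 0.40 (edgeR adjusted p = 0.282). Ccr10, the receptor of Ccl27, averaged 2.29 ± 1.08 CPM in GK and 0.809 ± 0.662 CPM in control (log2 fold change 1.51 ± 0.69, edgeR adjusted p = 0.196). A catalogued long non-coding RNA, NONRATT004900.2, lies wholly inside the Ccr10 locus. This RNA had 191, 195, 103 and 157 counts in GK libraries 7 to 10, against 149, 72, 47 and 92 counts in control libraries 7 to 10. Strand use in counting is not stated, so reads of the 2 cannot be told apart where they overlap. Ccl27, the skin-associated ligand of Ccr10, averaged 1.28 ± 0.409 CPM in GK and 1.68 ± 0.353 CPM in control (edgeR adjusted p = 0.434). Cxcr3 averaged 0.779 ± 0.218 CPM in GK and 0.846 ± 0.170 CPM in control (edgeR adjusted p = 0.836).

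The remaining receptors and ligands had too few counts to test. Ccr2, the monocyte receptor of Ccl2, had 12 counts in GK and 28 in control. Cxcr6, the receptor of Cxcl16, had 25 counts in GK and 34 in control and lies inside the locus of Fyco1. Ccr6 and Ccr9, receptors of lymphocytes homing to gut and mucosa, had 14 and 9 counts in GK against 31 and 23 counts in control. Xcr1 of cross-presenting dendritic cells had 19 counts in GK and 35 in control, and its ligand Xcl1 had 14 in GK and 9 in control. Ccr4 had 0 counts in GK and 3 in control, and the mucosal ligand Cxcl17 had 1 in GK and 2 in control. None of the genes in this group had an adjusted p under 0.05 in edgeR without the low-count filter, nor in DESeq2 where it gave one, and 0 had an unadjusted p under 0.05 in that edgeR fit.

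**Figure D5:**
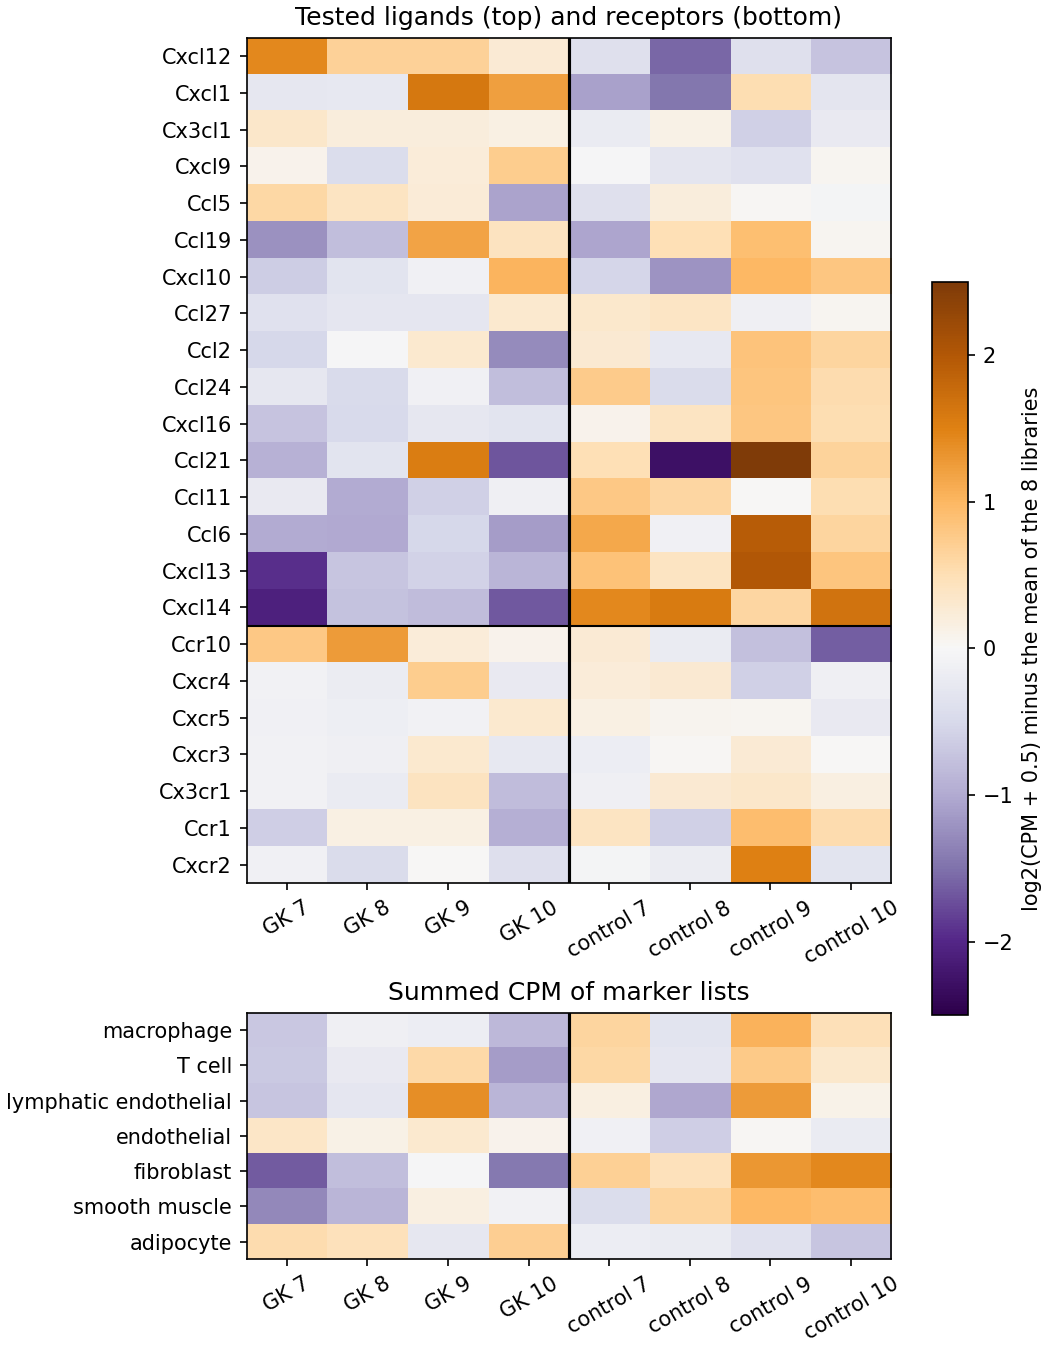
Values of log2(CPM + 0.5) minus the mean of the 8 libraries, in orange where higher and purple where lower, with GK libraries left of the black line and control libraries right of it. The upper panel shows the tested genes reported here, with Cxcl12 high in every GK library and Cxcl14 in every control library; the lower panel shows summed CPM of 7 marker lists, in which GK 9 and control 9 share high lymphatic endothelial sums.

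Of the marker sums given above, those of endothelium and neutrophils did not overlap between the strains. Of the further marker sums given here, that of fibroblasts did not overlap and the others did. No sum was tested. Fibroblast markers had a summed level of 1718 to 5305 CPM in GK and 7470.4 to 14690.2 CPM in control libraries. All 10 had a log2 fold change below 0 (median -1.09), and 4 of 10 fell past the test, beside 3.31% of all genes tested. Adipocyte markers had a summed level of 8671 to 17112 CPM in GK and 6319 to 9230.5 CPM in control libraries. Of these 11 markers, 2 had a log2 fold change below 0, and 3 rose past the test, beside 3.96% of all genes tested. Smooth muscle marker sums overlapped between the groups, but all 10 markers had a log2 fold change below 0 (median -1.04), and 1 fell past the test. Mast cell markers summed to 19.3 to 76.9 CPM in GK and 32.3 to 139 CPM in control libraries, and T cell markers to 21.7 to 71.6 CPM in GK and 39.1 to 82.0 CPM in control libraries, with none of either past the test. All 7 tested mast cell markers (median -1.29) and 5 of 9 tested T cell markers had a log2 fold change below 0. Erythroid markers, a sign of blood in the tissue, summed to 5773 to 12021 CPM in GK and 3770.4 to 43909 CPM in control libraries. All 6 had a log2 fold change below 0, with none past the test. Dendritic cell markers summed to 42.3 to 51.4 CPM in GK and 39.7 to 68.9 CPM in control libraries. Of 6 tested, 3 had a log2 fold change below 0 and 2 fell past the test. Natural killer cell markers summed to 16.5 to 24.6 CPM in GK and 12.6 to 20.3 CPM in control libraries. Of 5 tested, 2 had a log2 fold change below 0 and 1 rose past the test. Brown adipocyte markers summed to 1607.5 to 5649 CPM in GK and 540.1 to 2981 CPM in control libraries. Of 6 tested, none had a log2 fold change below 0 (median 1.49) and 2 rose past the test. The part of cell make-up in the changes of Cxcl12, Cxcl14 and the other ligands was not tested.

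The wider chemokine machinery was read from 4 further gene lists. A list of 10 tested genes outside the name rule held atypical receptors, the CXC chemokines Pf4 and Ppbp, and other factors of the system. All 10 had a log2 fold change below 0 (median -0.81) and 1 fell past the test, beside 3.31% of all genes tested. That gene was Rarres2, or chemerin, an adipose-derived attractant of macrophages and dendritic cells, with 34.3 ± 2.42 CPM in GK and 60.1 ± 14.3 CPM in control (log2 fold change -0.81 ± 0.17, edgeR adjusted p = 0.0328). Cmklr1, its receptor, had a log2 fold change of -1.12 ± 0.31 and an edgeR adjusted p = 0.0625. Of 31 genes of the signalling below the receptors, 1 fell, beside 3.31% of all genes tested. It was Rgs2, which shortens G protein signals, with 56.5 ± 18.0 CPM in GK and 186 ± 93.1 CPM in control (log2 fold change -1.72 ± 0.41, edgeR adjusted p = 0.0438). The median of these 31 was -0.24.

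Of 20 genes for heparan sulfate carriers and their enzymes (median log2 fold change -0.34), 1 rose and 1 fell. Over all genes tested, 3.96% rose and 3.31% fell. Sdc4, a syndecan that carries heparan sulfate on the cell surface, had 238 ± 113 CPM in GK and 67.5 ± 15.3 CPM in control (log2 fold change 1.82 ± 0.42, edgeR adjusted p = 0.0386). Its groups overlapped, since GK 9 had 74.2 CPM and control libraries ran from 52.5 to 86.1 CPM. GK 7, GK 8 and GK 10 had 272, 271 and 333 CPM. Hs2st1, a sulfotransferase of these chains, had 46.7 ± 6.79 CPM in GK and 79.3 ± 15.5 CPM in control (log2 fold change -0.76 ± 0.17, edgeR adjusted p = 0.0355). Of 17 genes for cytokines and factors that induce chemokines (median 0.017), 2 rose, beside 3.96% of all genes tested, and none fell. Of these, Nfkbia, the NF-kB inhibitor that is itself an NF-kB target, had 120 ± 18.3 CPM in GK and 72.2 ± 13.2 CPM in control (log2 fold change 0.73 ± 0.17, edgeR adjusted p = 0.0423). Each of the 5 calls named here from these lists ended in at least 6 of the 8 fits without 1 library, every one of them without GK 7, GK 8 or GK 10, with adjusted p up to 0.134. Without both libraries numbered 9, the calls of Rarres2 (log2 fold change -0.705, edgeR adjusted p = 0.0518) and Nfkbia (0.702, edgeR adjusted p = 0.0562) ended too.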

How the data were processed

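Raw counts of genes and of lncRNA transcripts were deposited by the authors, and FPKM per library stand in the same tables per the file headers. The log2 fold changes, p-values and q-values in those tables are the authors' deposited values, and the file headers name edgeR without a version or test. Per the submitters' processing notes, tools and builds include Bowtie 0.12.2, mm8 and mm9, with no role stated; the rat build and the counting program are not given in the sources used here. From the counts, edgeR 4.0.16 in R 4.3.3 (filterByExpr, TMM, glmQLFit, glmQLFTest; strain group as sole term) gave fold changes, with Benjamini-Hochberg adjustment at 0.05, and the script was tested on simulated data. Each SE was derived as the log2 fold change divided by the square root of F. Counting intervals are exact at 95% and cover counting error only. Groups came from titles and strain; the source name, which reads GK for controls too, was not used. TMM factors ran from 0.826 to 1.24. Alternatives were other scalings and filters, DESeq2 and limma-voom, the number as a block, and left-out libraries.

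The members, gene lists and tests were chosen with earlier results of these data known. Every member is named except 1 that is not reported here, as is 1 gene of another list; both stay in the counts and medians. Values in all 8 libraries are given for tested members with an adjusted or unadjusted p under 0.05 or among the 12 with the highest mean CPM, and for Ccr3 and Ccl9, chosen after their values were seen. Of the other lists of the chemokine machinery, genes past the test are named; marker lists are given by counts and sums. Cmklr1, Ackr3, Pf4, Ppbp, Mpo, Retnlg, Lyz2 and Epx were added after their values were seen. In the table, 27 listed genes were not found by name.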

Additional observations from a re-analysis of the deposited data

Results flagged for a closer look

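In 4 of 48 groups of 4 libraries examined, 1 library stood apart from the other 3 by Dixon's 95% criterion; chance does so in about 5% of groups. Cxcr4 had 13.5 CPM in GK 9, with the next GK library at 7.37 CPM. Cxcr2 had 7.11 CPM in control 9, with the next control library at 2.06 CPM. Ccl27 and Cxcr5 were highest in GK 10, at 1.89 and 1.59 CPM, with the next GK library at 1.10 CPM for both. None of these 4 genes passed the test between the strains.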

How the results depend on the processing

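Of 13673 genes tested, 995 changed; this count was 654 without a low-count filter, 2433 in DESeq2 (16.2% of those with an adjusted p), 2534 without both libraries numbered 9 and 135 to 3046 without 1 library each. The 6 members called became 5 with RLE scaling, no filter or limma-voom, 6 with upper-quartile factors, at least 1 CPM in 4 libraries or without both libraries numbered 9, 9 in DESeq2 (the 6 with Ccl24, Ccr3 and Ccl9) and 1 to 7 without 1 library each. With the replicate block, 7 members (Cxcl1 added, log2 fold change 1.48, adjusted p = 0.0204) and 2372 genes (17.3% of those tested) were called; same-numbered libraries deviated with correlations of 0.438 (7), 0.114 (8), 0.560 (9) and 0.000655 (10), and not every library correlated best with its own number, so the numbers were not taken as pairs. No called member reversed its sign in any alternative. Members that were not called did: without both libraries numbered 9, Cxcr4 had -0.32, Cxcl10 0.35 and Cxcr5 0.025. Without 1 library each, the values ran from -0.142 to 0.266 for Cxcr4, -0.929 to 0.279 for Cxcl10, -0.193 to 0.0446 for Cxcr5, -1.01 to 0.39 for Ccl19, -2.13 to 0.112 for Ccl21 and -0.314 to 0.0267 for Cxcr3. The cause of these shifts was not tested. Depth limits the 20 untested members, which had at most 107 counts in a group.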
